A study of Rattus norvegicus with 25 samples.

Results

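Levels of 4 genes of excitatory neurons, Slc17a7, Slc17a6, Neurod6 and Tbr1, were followed across 25 striatum arrays of adolescent rats. The genes were chosen by the measured Slc17a7 level, which varied between these striatum samples, and their probe sets were then found by symbol. Exactly 1 probe set was annotated to each of Slc17a7, Slc17a6 and Neurod6, so that 3 of the 29214 probe sets were described. No probe set was annotated to Tbr1 by symbol, gene identifier or transcript accession, and no value is given for it. Because the variation of Slc17a7 chose the genes, its own levels and group differences are a description, and no test of them is given.

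The study asked whether nicotine in the womb, or the reduced food intake that comes with it, leaves changes in striatal expression. All animals were male Lister Hooded rats killed between postnatal days 35 and 42, with the striatum dissected and 1 array hybridised per animal. The 7 Nic rats were born to dams whose drinking fluid contained nicotine, the 10 Con-Pf rats to dams without nicotine that were given only as much food as the nicotine dams ate, and the 8 Con rats to dams without nicotine that fed freely. Litters were not given per array, so littermates cannot be told from unrelated pups. The p-values rest on the spread between these arrays, not between litters, and may be too small if littermates are among them. Arrays Con-Pf 9 and Con-Pf 10 carry a food-matched title beside a description that reads as control. The study's methods count more Con than Con-Pf arrays in their final tally. Elsewhere the methods start both groups at equal size and then remove Con samples but no Con-Pf samples, which matches the titles. Con-Pf 9 and Con-Pf 10 were kept in Con-Pf as titled. Values are log2 levels after robust multi-array averaging (RMA), in which a difference of 1 is a 2-fold difference.

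The striatum holds very few glutamatergic neurons of its own. Most of its neurons are GABAergic medium spiny neurons, and it lies beneath the cortex and beside the claustrum, whose excitatory neurons send axons into it while their cell bodies, and most of their mRNA, stay outside. Slc17a7 encodes the vesicular glutamate transporter typical of cortical and hippocampal excitatory neurons, Slc17a6 encodes the form that predominates in thalamus and brainstem, Neurod6 encodes a basic helix-loop-helix transcription factor of cortical and hippocampal pyramidal neurons, and Tbr1 encodes a T-box factor of deep-layer cortical neurons.

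The start regions of the 3 measured genes are shown as a description, and whether they bear on how the genes moved together was not tested. Each is the RefSeq window that runs 5′ to 3′ over 250 bases before and 50 bases after the annotated start, in the GRCr8 build, with every E-box in capitals. The E-box, CANNTG, is the sequence read by basic helix-loop-helix factors such as Neurod6, and it reads the same on both strands.
Slc17a7, GRCr8 chr1:104785955-104786254, strand +: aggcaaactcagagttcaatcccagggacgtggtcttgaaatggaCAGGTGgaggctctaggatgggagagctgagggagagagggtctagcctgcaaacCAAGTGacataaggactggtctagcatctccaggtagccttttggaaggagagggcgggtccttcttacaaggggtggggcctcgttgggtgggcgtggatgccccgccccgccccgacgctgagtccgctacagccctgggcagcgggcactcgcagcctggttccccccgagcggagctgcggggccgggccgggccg
Neurod6, GRCr8 chr4:86180106-86180405, strand -: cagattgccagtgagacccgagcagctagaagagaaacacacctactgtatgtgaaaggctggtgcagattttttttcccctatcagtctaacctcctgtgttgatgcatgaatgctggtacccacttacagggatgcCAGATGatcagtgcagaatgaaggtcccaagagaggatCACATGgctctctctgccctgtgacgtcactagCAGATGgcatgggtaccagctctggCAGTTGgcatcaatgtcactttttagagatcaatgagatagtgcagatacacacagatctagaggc
Slc17a6, GRCr8 chr1:110348197-110348496, strand +: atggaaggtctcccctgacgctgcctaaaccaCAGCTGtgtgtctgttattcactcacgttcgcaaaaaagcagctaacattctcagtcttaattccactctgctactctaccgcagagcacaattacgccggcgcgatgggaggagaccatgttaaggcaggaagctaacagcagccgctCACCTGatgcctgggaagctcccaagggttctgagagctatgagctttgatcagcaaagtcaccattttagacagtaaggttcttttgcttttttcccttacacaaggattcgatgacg
The Neurod6 window held 4 E-boxes, while the Slc17a7 and Slc17a6 windows held 2 each. At least 1 E-box was present in 72.1% of the 33469 windows of this length. In the Neurod6 window 2 of the 4 were CAGATG, a form that occurred on either strand in 16.6% of all windows, and at least 2 times in 1.71%. Neither transporter window held that form. These matches describe the letters of the windows only.

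The dissection label was checked against markers before the levels were read. The 17 measured medium spiny neuron markers averaged between 11.56 and 11.66 in Nic arrays, 11.51 and 11.65 in Con-Pf arrays and 11.54 and 11.68 in Con arrays, and included Ppp1r1b (mean level 12.87), the dopamine-regulated phosphatase inhibitor of these cells, and Penk (mean level 13.20), the enkephalin precursor. Correlations between arrays ranged from 0.967 to 0.997 over the 14607 probe sets at or above the median level of 6.97. Con 3 and Con 5 stood apart on the first principal component, which held 30.5% of the variance, so differences, correlations, slopes and list counts are also given without them. The correlation of the Slc17a7 level with that component was -0.35 over the 25 arrays, and its highest among the first 5 was 0.60, with the fourth.

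Slc17a7 had the 5th largest standard deviation (SD) of the 14607 probe sets and the 15th of all 29214. Its level ran between 7.34 and 10.47 with a median of 8.82 in Nic, between 7.19 and 8.55 with a median of 7.59 in Con-Pf, and between 7.50 and 10.25 with a median of 7.93 in Con. From the lowest to the highest array the range of 3.28 on the log2 scale was 9.73-fold. The highest levels belonged to Nic 2 (10.47), Con 5 (10.25) and Nic 7 (10.12), and no array lay between those and Nic 4 (9.11). High levels therefore occurred in both the nicotine and the free-fed group, and 5 of 7 Nic arrays and 2 of 8 Con arrays lay above the highest Con-Pf array. In such tissue pieces, fewer cells of a type and less RNA per cell cannot be told apart.

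The group means of Slc17a7 were 8.86 ± 1.19 in Nic (SD, n = 7), 7.68 ± 0.35 in Con-Pf (SD, n = 10) and 8.31 ± 0.91 in Con (SD, n = 8). The Nic minus Con-Pf difference was 1.18 (standard error, SE, 0.38), or 2.26-fold. It was 0.55 (SE 0.40) for Nic minus Con and -0.63 (SE 0.36) for Con-Pf minus Con. All 3 pairs of groups overlapped, and the spread inside Nic and Con exceeded the distance between their means. Without Con 3 and Con 5 the Nic minus Con difference was 0.79 and the Con-Pf minus Con difference -0.39. With Con-Pf 9 and Con-Pf 10 counted as Con the 3 differences were 1.17, 0.68 and -0.49.

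**Figure D1:**
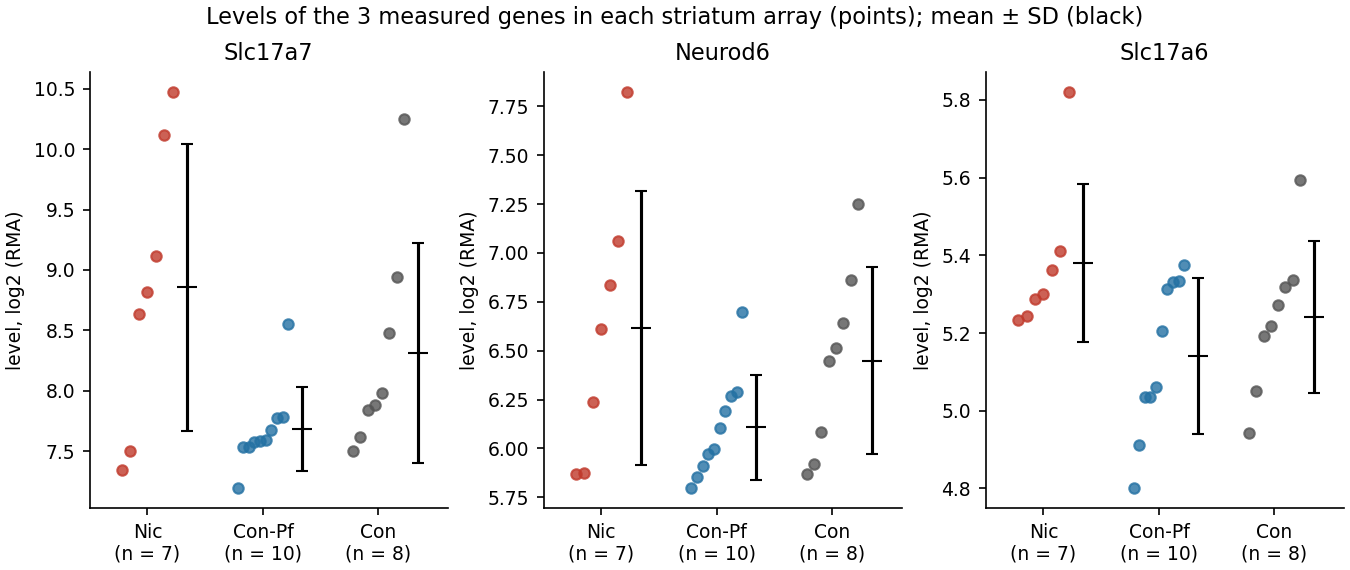
Level of Slc17a7, Neurod6 and Slc17a6 (y axes, log2 RMA units, each panel on its own scale) in each array of the Nic (n = 7), Con-Pf (n = 10) and Con (n = 8) groups, with points sorted by level and the mean ± SD in black. The 3 Slc17a7 levels above 10 belong to 2 Nic arrays and 1 Con array, and all groups overlap in all 3 genes.

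Neurod6 varied across the arrays much as Slc17a7 did, over a smaller range. Its level ran between 5.87 and 7.82 with a median of 6.61 in Nic, between 5.80 and 6.70 with a median of 6.05 in Con-Pf, and between 5.87 and 7.25 with a median of 6.48 in Con. The highest 3 arrays were Nic 2 (7.82), Con 5 (7.25) and Nic 7 (7.06), the same 3 that were highest for Slc17a7. Above the highest Con-Pf array lay 3 of 7 Nic and 2 of 8 Con arrays. The range over all arrays was 2.03 on the log2 scale, or 4.08-fold.

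No group difference in Neurod6 passed the test. Its mean lay below the median level of all probe sets, so it was tested in limma over all 29214, where 0.0685% were called in Nic versus Con-Pf, 0% in Nic versus Con and 0.329% in Con-Pf versus Con. The group means were 6.62 ± 0.70 in Nic (SD, n = 7), 6.11 ± 0.27 in Con-Pf (SD, n = 10) and 6.45 ± 0.48 in Con (SD, n = 8). The difference was 0.51 (SE 0.22, limma adjusted p = 0.99994) for Nic minus Con-Pf, 0.17 (SE 0.23, adjusted p = 0.810) for Nic minus Con, and -0.34 (SE 0.21, adjusted p = 0.510) for Con-Pf minus Con. Without Nic 2 the Nic minus Con difference was -0.03. The 3 differences were 0.51, 0.20 and -0.30 without Con 3 and Con 5, none of them called.

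Slc17a6 varied least of the 3, and only in part along with the others. Its level ran between 5.23 and 5.82 with a median of 5.30 in Nic, between 4.80 and 5.38 with a median of 5.13 in Con-Pf, and between 4.94 and 5.59 with a median of 5.24 in Con. Nic 7 (5.82), Con 5 (5.59) and Nic 2 (5.41) were again the highest 3 arrays, although Nic 7 rather than Nic 2 came first. Its mean of 5.24 was at percentile 24.2 of all probe-set means, and it was tested in the same fit over all probe sets. Group means were 5.38 ± 0.20 in Nic (SD, n = 7), 5.14 ± 0.20 in Con-Pf (SD, n = 10) and 5.24 ± 0.20 in Con (SD, n = 8). The difference was 0.24 (SE 0.09, limma adjusted p = 0.99994) for Nic minus Con-Pf, 0.14 (SE 0.10, adjusted p = 0.610) for Nic minus Con and -0.10 (SE 0.09, adjusted p = 0.668) for Con-Pf minus Con. With Con 3 and Con 5 left out these were 0.24, 0.20 and -0.04, and none was called. The group ranges overlapped throughout.

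Slc17a7 and Neurod6 were closely correlated inside the groups. After each group mean was taken off, Pearson's r was 0.91 and Spearman's rho 0.88 over 25 arrays, and each had a permutation p of 1e-05, the smallest that 100000 resamples can give (3e-05 adjusted over the 3 pairs of genes compared). Within Nic the pair had r = 0.96 and rho = 0.96 (n = 7, exact permutation p = 0.000397 and 0.00278, and 0.00119 and 0.00833 adjusted over the 3 pairs). Within Con it had r = 0.87 and rho = 0.88 (n = 8, exact permutation p = 0.00233 and 0.00724, and 0.00699 and 0.0217 adjusted). Within Con-Pf it had r = 0.82 and rho = 0.54 (n = 10, permutation p = 0.0106 and 0.115, and 0.0317 and 0.246 adjusted), where Con-Pf 6 was the highest array for both genes. Without Nic 2 and Con 5, the 2 arrays farthest from the median of Slc17a7, r was 0.87 over 23 arrays. Without all 3 arrays above 10 it was 0.84 over 22 arrays (permutation p = 5e-05), and without Con 3 and Con 5 it was 0.92 (permutation p = 1e-05). Pooled over the groups r was 0.92 and rho 0.85 (permutation p = 1e-05 and 1e-05).

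The correlation of Slc17a7 with Slc17a6 was weaker and rested on the highest arrays. With group means taken off, r was 0.50 and rho 0.45 over 25 arrays (permutation p = 0.0117 and 0.0235, and 0.0175 and 0.0353 adjusted over the 3 pairs). Without Nic 2 and Con 5 r was 0.41 (permutation p = 0.0833), without Con 5 alone 0.37 (permutation p = 0.0976), without Con 3 and Con 5 0.38 (permutation p = 0.0929), and without the 3 arrays above 10 it was 0.11 (permutation p = 0.543). Within groups r was 0.58 in Nic, 0.20 in Con-Pf and 0.70 in Con (n = 7, 10 and 8, permutation p = 0.177, 0.626 and 0.0685, exact in Nic and Con, and 0.266, 0.626 and 0.103 adjusted over the 3 pairs). Pooled over the groups r was 0.62 and rho 0.41 (permutation p = 0.00109 and 0.0396).

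Neurod6 and Slc17a6 did not pass the test of correlation inside the groups. Their r was 0.40 and rho 0.39 over 25 arrays (permutation p = 0.0563 and 0.0577, and the same after adjustment over the 3 pairs). Without Nic 2 and Con 5, also the 2 arrays farthest from the median of Neurod6, r was 0.34 (permutation p = 0.134), without Con 3 and Con 5 it was 0.33 (permutation p = 0.159), and without the 3 highest Slc17a7 arrays it was 0.14. The raw p lay on both sides of the threshold as single arrays were left out, falling below it in 7 of 25 cases, the lowest without Nic 2 (r = 0.46, permutation p = 0.0289). Within groups r was 0.44 in Nic, 0.24 in Con-Pf and 0.55 in Con (n = 7, 10 and 8, permutation p = 0.320, 0.513 and 0.153, exact in Nic and Con). Pooled over the groups r was 0.51 and rho 0.44 (permutation p = 0.0101 and 0.0272).

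**Figure D2:**
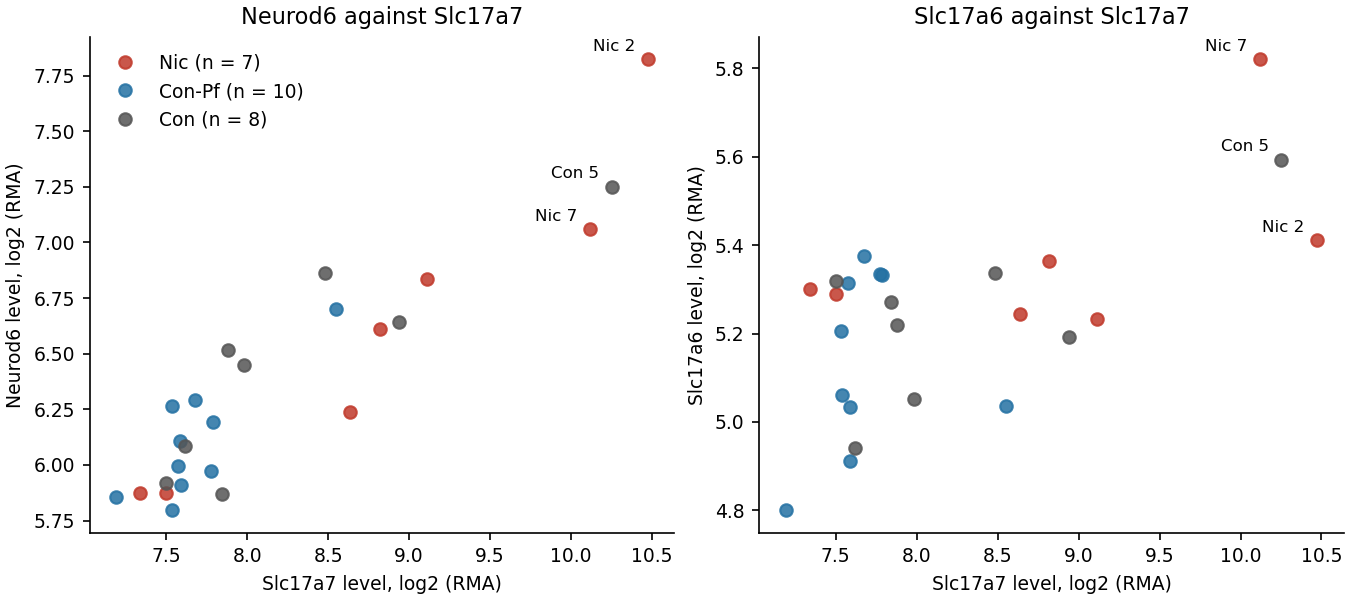
Neurod6 level (left) and Slc17a6 level (right) against the Slc17a7 level, all in log2 RMA units, with 1 point per array coloured by group. Neurod6 follows Slc17a7 along the range (r = 0.92 pooled), whereas Slc17a6 is highest in the 3 labelled arrays and scattered in the other 22.

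A second question was which of the other probe sets followed Slc17a7 inside the groups, and where Neurod6 and Slc17a6 stood among them. Each probe set was fitted in limma on group and the Slc17a7 level, and the slope gives its log2 change per log2 unit of Slc17a7. Of all 29213 other probe sets 0.147% were called, 38 with a positive slope (0.130%) and 5 with a negative one (0.0171%). The Neurod6 slope was 0.53 (SE 0.05, adjusted p = 9.55e-07), and its r of 0.91 ranked 4th of 29213. The Slc17a6 slope was 0.12 (SE 0.04, adjusted p = 0.491), and its r of 0.50 ranked 423rd. The 95th percentile of r over all other probe sets was 0.39, so that both lay above it and Neurod6 alone of the 2 passed the threshold. Without the 3 arrays above 10 the Neurod6 slope was 0.56 (adjusted p = 0.00565) and the Slc17a6 slope 0.04 (adjusted p = 0.9998). The 2 slopes were 0.57 (adjusted p = 3.32e-06) and 0.10 (adjusted p = 0.9998) without Con 3 and Con 5.

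Among the 14606 other probe sets at or above the median level, 41 were called (0.281%), 36 positive (0.246%) and 5 negative (0.0342%). Of the positive calls 27 carried 1 gene symbol. The highest r of all, 0.97, belonged to probe set 10845628 with a slope of 1.05 (SE 0.05, adjusted p = 1.12e-13), which the annotation does not list. The number of calls depended on a few arrays: it was 16 without Nic 2, 26 without Nic 3, 86 without Con 3, 37 without Con 3 and Con 5 and 2 without the 3 arrays above 10, and 3 when the ranks of Slc17a7 replaced its levels.

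The named gene most like Slc17a7 at or above the median level was Ccn3, a secreted matricellular protein gene, with r = 0.89 and a slope of 0.47 (SE 0.05, adjusted p = 3.88e-06). Its level ran between 7.29 and 8.91 with a median of 7.91 in Nic, between 6.99 and 7.78 with a median of 7.36 in Con-Pf and between 7.12 and 8.75 with a median of 7.31 in Con. Nic 2 and Con 5 were its highest arrays too, and the groups overlapped. Next came Galnt9 (r = 0.89), which starts O-linked glycosylation, Gabbr2 (r = 0.88), a subunit of the metabotropic GABA receptor, Olfm1 (r = 0.86), a secreted glycoprotein of neurons, and Sidt1 (r = 0.86).

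The remaining 5 of the 10 highest had r between 0.80 and 0.86. Nptx1 (r = 0.86), a secreted pentraxin that binds AMPA receptors, had a slope of 0.30 (SE 0.04), and Cck (r = 0.84), the cholecystokinin precursor made by many cortical neurons, one of 0.38 (SE 0.05). Nr4a2 (r = 0.85), an orphan nuclear receptor expressed in the claustrum and deep cortex, had a slope of 0.43 (SE 0.06, limma adjusted p = 5.4e-05). Its level reached 8.19 in Nic, 7.63 in Con-Pf and 8.95 in Con, from lowest levels of 7.08, 7.03 and 7.00 in the same groups. Iqsec3 (r = 0.83), an exchange factor of inhibitory synapses, and Ephb6 (r = 0.80), a kinase-inactive ephrin receptor, completed the 10. The slopes of Ccn3 and Nr4a2 were still called without the 3 arrays above 10 (0.46 and 0.47), and those of the other 8 were not. Of those 8, Nptx1 had a slope of 0.25 there (adjusted p = 0.237) and Cck one of 0.31 (adjusted p = 0.655), while Sidt1 had 0.14 there and 0.33 over all arrays. The slope of Ephb6 was 0.10 and not called without Con 3 and Con 5 (adjusted p = 0.0978), where the other 9 were called, and Ephb6 was not called without Nic 2 or Con 5 alone either.

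Below the median level, 5 further genes were named after their values were seen. Hs3st2, a heparan sulfate sulfotransferase gene, had r = 0.95 and a slope of 0.34 (SE 0.03, adjusted p = 2.8e-08), with levels between 6.23 and 7.25 in Nic, 5.80 and 6.27 in Con-Pf and 6.09 and 7.26 in Con. It was called without the 3 arrays above 10 as well (slope 0.25, adjusted p = 0.0160). Neurod2 (r = 0.89), a helix-loop-helix relative of Neurod6, Nrn1 (r = 0.86), which encodes neuritin, Rspo3 (r = 0.84), a Wnt-enhancing secreted protein, and Sstr1 (r = 0.83), a somatostatin receptor, lost their calls there. Their slopes there were 0.23, 0.30, 0.27 and 0.19, against 0.26, 0.36, 0.38 and 0.27 over all 25 arrays. All 5 were called without Con 3 and Con 5.

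Negative slopes were few, and their calls depended on single arrays. Cfap126, a cilium-associated protein gene, had a slope of -0.30 (SE 0.06, limma adjusted p = 0.0161) and r = -0.72. Lrrc46 had a slope of -0.21 (adjusted p = 0.0167), Ccdc190 one of -0.22 (adjusted p = 0.0177) and Sfr1, a recombination cofactor gene, one of -0.12 (adjusted p = 0.0449). Without the 3 arrays above 10 none of the 4 was called (adjusted p = 0.9998 each), with slopes of -0.27, -0.18, -0.24 and -0.13. Cfap126 was not called without Nic 2, Nic 3, Nic 7 or Con 5, nor was Ccdc190, and Lrrc46 was not called without Nic 2 or Con 5. Without Con 3 and Con 5 the adjusted p was 0.0603 for Cfap126, 0.0768 for Lrrc46, 0.0493 for Ccdc190 and 0.0363 for Sfr1. Sfr1 kept its call in 7 of the 25 fits that left out 1 array and had an adjusted p of 0.0908 in the fit over all probe sets. Ppp3r1, the calcineurin regulatory subunit, had the lowest r (-0.72) with a slope of -0.05 that was not called (adjusted p = 0.185). In the fit over all probe sets Drc7, a component of the dynein regulatory complex, was also called with a slope of -0.12 (adjusted p = 0.0339) and was named after its value was seen.

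**Figure D3:**
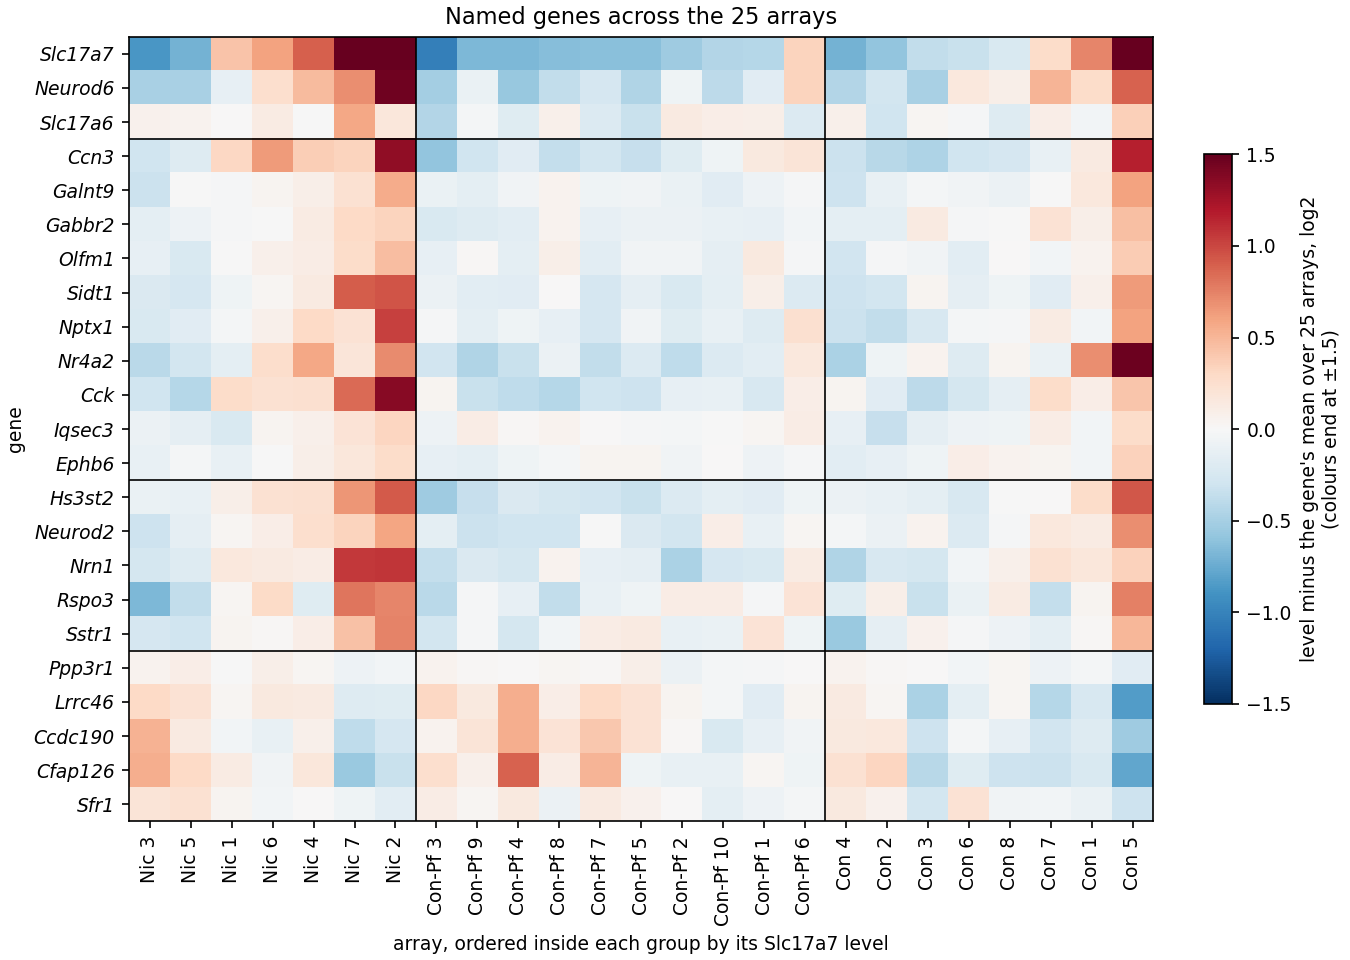
Level of each named gene (rows) in each array (columns) minus the mean of that gene over 25 arrays, in log2 units, with arrays of Nic, Con-Pf and Con ordered by Slc17a7 inside each group. From top to bottom the blocks hold the measured genes, the 10 highest r at or above the median level, the 5 highest below it, and the 5 lowest. The columns of Nic 2, Nic 7 and Con 5 are the warmest in the upper blocks.

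Marker lists were read by their counts in the same fit over all probe sets, where the median slope of all probe sets was -0.003. Of 17 measured markers of cortical excitatory neurons, the 4 genes above left out, 13 had a positive slope and 4 were called, Cck, Nrn1, Nptx1 and Neurod2, with a list median of 0.07. The next 3 by p were named after their values were seen. Rprm had a slope of 0.18 (SE 0.04, limma adjusted p = 0.0702, and 0.0369 among the 14606 probe sets at or above the median level), Slc30a3, a vesicular zinc transporter gene, one of 0.13 (SE 0.04, adjusted p = 0.346) and Neurod1, another helix-loop-helix relative, one of 0.14 (SE 0.04, adjusted p = 0.363). The other 10 had slopes between -0.04 and 0.11, and none was called. The same 4 genes were called without Con 3 and Con 5 (list median 0.05), and none without the 3 arrays above 10. There 15 of 17 slopes were positive (list median 0.06), which was not particular to this list. Of 8 microglia markers 7 had a positive slope there (median 0.08), as did 7 of 8 astrocyte (0.04) and 10 of 13 interneuron markers (0.04). In the choroid plexus and ependyma list 0 of 7 did. The mean level of the cortical list ran between 8.07 and 8.52 in Nic, 8.07 and 8.20 in Con-Pf and 8.04 and 8.34 in Con.

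Lists of neighbouring regions gave fewer calls. Of 7 measured markers of claustrum, insula, piriform cortex and amygdala, 4 had a positive slope, Nr4a2 alone was called, and the list median was 0.01. Rspo2 had a slope of 0.15 (SE 0.04, limma adjusted p = 0.175), Synpr one of -0.05 (SE 0.02, adjusted p = 0.593) and Trpc4 one of 0.06 (SE 0.03, adjusted p = 0.650). Of 8 hippocampal markers 5 had a positive slope, none was called, and the list median was 0.009. The nearest to a call was C1ql3, a secreted synaptic organiser gene, with a slope of 0.20 (SE 0.04, adjusted p = 0.0702, and 0.0369 among the 14606 probe sets at or above the median level). Grp had a slope of 0.13 (SE 0.04, adjusted p = 0.428) and Wfs1 one of -0.06 (SE 0.03, adjusted p = 0.649). Of 10 markers of thalamus and other Slc17a6 neurons 5 had a positive slope, none was called, and the list median was -0.001. Ptpn3 had the largest of those slopes, 0.19 (SE 0.05, adjusted p = 0.198), and Lhx9, next by p, had one of -0.05 (SE 0.05, adjusted p = 0.848). Among the 7 measured relatives of Slc17a7 in its transporter family none was called, Slc17a6 having the largest slope, followed by Slc17a5 (0.10, SE 0.05), the lysosomal sialic acid transporter. Slc17a8, the third vesicular glutamate transporter, named after its value was seen, had a slope of 0.06 (SE 0.05). Nr4a2 was the only call in these 4 lists without Con 3 and Con 5, and likewise without the 3 arrays above 10.

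Markers of the striatum itself had slopes near 0. Of 17 medium spiny neuron markers 3 had a positive slope, none was called, and the list median was -0.02. The 4 genes with the smallest p ran both ways. Isl1, a LIM homeobox factor, had a slope of -0.07 (SE 0.03, limma adjusted p = 0.596), and Pde10a, the phosphodiesterase enriched in these neurons, one of 0.05 (SE 0.03, adjusted p = 0.679). Adora2a, the adenosine receptor of the indirect pathway, had one of -0.03 (SE 0.02) and Drd1, the dopamine receptor of the direct pathway, one of -0.02 (SE 0.02). Of the 17 slopes 5 were positive without Con 3 and Con 5 (median -0.01), and 10 were without the 3 arrays above 10 (median 0.004). None was called among 13 markers of interneurons, 8 of astrocytes, 8 of oligodendrocytes, 8 of microglia and 7 of endothelium, although all 7 endothelial slopes were positive (median 0.04). The same held, with no call and all 7 endothelial slopes positive, without Con 3 and Con 5 and without the 3 arrays above 10.

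All 7 measured markers of choroid plexus and ependyma had a negative slope, with a median of -0.27, and none was called. Ttr, the transthyretin gene of choroid plexus, had a slope of -0.66 (SE 0.41, limma adjusted p = 0.710), and Foxj1, the regulator of motile cilia, one of -0.10 (SE 0.03, adjusted p = 0.359). All 7 slopes were negative without Con 3 and Con 5 and without the 3 arrays above 10 too (median -0.28 in each). The mean level of this list ran between 6.32 and 7.51 in Nic, 6.39 and 9.84 in Con-Pf and 6.43 and 9.25 in Con. The part of neighbouring tissue in the Slc17a7, Neurod6 and Slc17a6 levels was not tested.

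**Figure D4:**
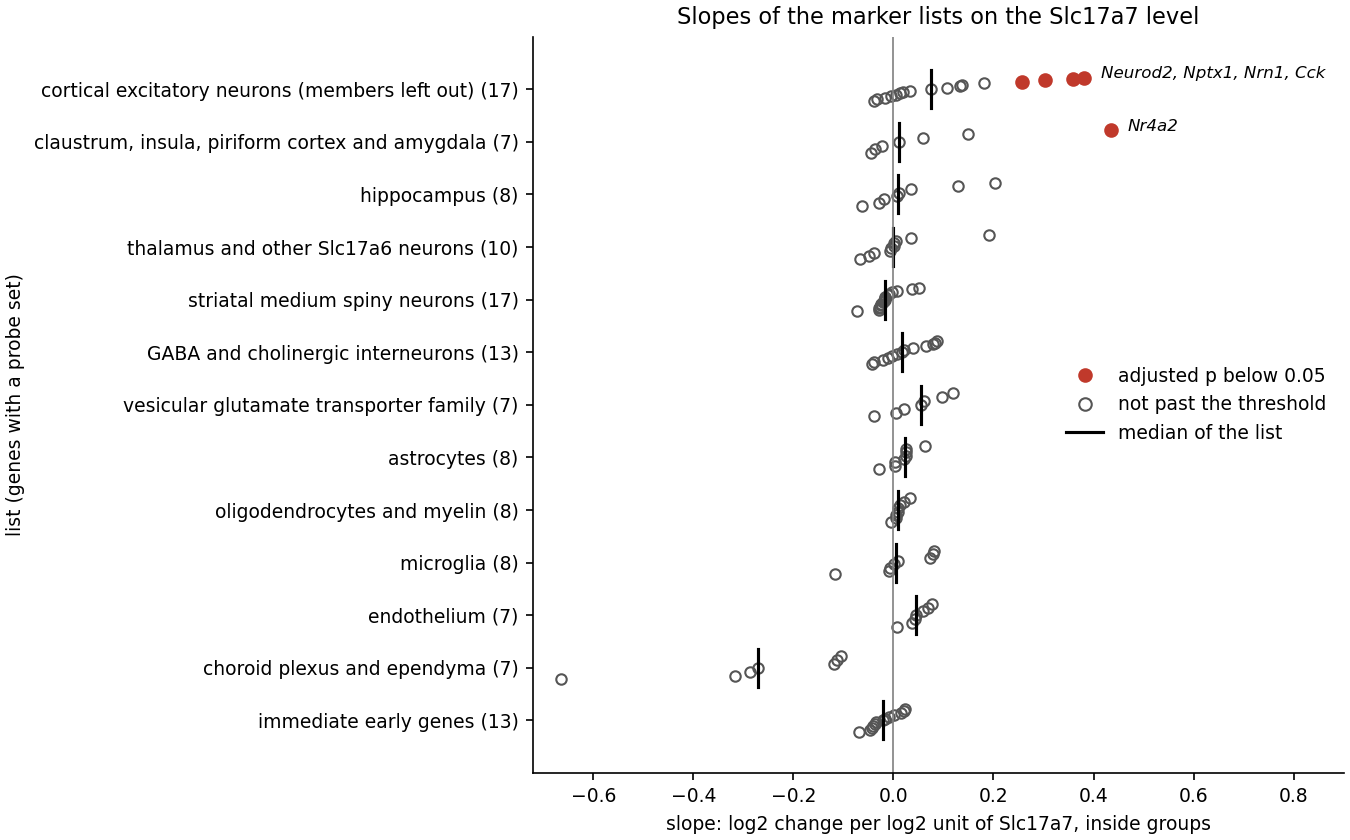
Slope of each marker gene on the Slc17a7 level inside groups (x axis, log2 change per log2 unit of Slc17a7) by marker list (y axis, with the number of genes), filled red where the limma adjusted p was below 0.05. The 4 called cortical genes and Nr4a2 lie to the right, the other lists centre near 0, and the choroid plexus and ependyma list lies to the left.

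In the group comparisons no cortical marker was called. Of the 17, 13 were higher in Nic than in Con-Pf (median 0.12) and 15 higher in Nic than in Con (median 0.09). In Con-Pf versus Con 6 were higher in Con-Pf (median -0.04). Medians over all probe sets were -0.001, -0.005 and -0.002 in the same order. Other lists also leaned towards Nic against Con, with 10 of 13 interneuron markers (median 0.10) and 7 of 8 hippocampal ones (0.07) higher. Of 8 astrocyte markers 3 were (-0.09). Against Con-Pf, 10 of 13 interneuron markers were higher in Nic (median 0.06). The comparisons share arrays. Cck had a Nic minus Con-Pf difference of 0.53 (SE 0.17, limma adjusted p = 0.9996), and Nrn1 one of 0.48 (SE 0.16, adjusted p = 0.9996). Neurod2 and Nptx1 lay closer together, with means of 6.04 and 8.24 in Nic and 5.76 and 7.98 in Con-Pf. These genes were called above for following Slc17a7, itself higher in Nic, so their differences are no separate evidence.

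With the Slc17a7 level in the model, the small group differences of Neurod6 moved towards or past 0. The Nic minus Con-Pf difference was -0.11 (SE 0.11) with the Slc17a7 level in the model and 0.51 (SE 0.22) without it. The Con-Pf minus Con difference was -0.01 (SE 0.10) with it and -0.34 (SE 0.21) without it, and the Nic minus Con difference was -0.12 (SE 0.11) with it and 0.17 (SE 0.23) without it. For Slc17a6 the Nic minus Con-Pf difference was 0.10 (SE 0.10) with it and 0.24 (SE 0.09) without it. No difference of either gene was called in either model. The differences with the Slc17a7 level in the model follow by arithmetic from the slopes and the Slc17a7 differences above. They are therefore no separate evidence.

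The same term was set against the calls between groups over all 14607 probe sets at or above the median level. In Nic versus Con-Pf 27 were called without it (0.185%) and 16 with it (0.110%), 14 of them shared. In Con-Pf versus Con 184 were called without it (1.26%) and 91 with it (0.623%), 89 of them shared. The Slc17a7 means were not equal between groups, so the term can also widen standard errors. A lost call is therefore not by itself a smaller difference. With Con-Pf 9 and Con-Pf 10 counted as Con, the calls without the term were 5 in Nic versus Con-Pf and 27 in Con-Pf versus Con. In Nic versus Con none was called in limma in either model (0% in each, with 2370 and 3497 probe sets at an unadjusted p below 0.05), except that the model with the Slc17a7 level called 503 without Con 7 and 1 without Con-Pf 10. The methods' t-test, run with unequal variances, called 0 in Nic versus Con as well. Without Nic 5 or without Con-Pf 6, the model with the Slc17a7 level called 0 in Nic versus Con-Pf, and without Nic 3 it called 1. Without Con 3 and Con 5 the calls without the term were 33 in Nic versus Con-Pf and 85 in Con-Pf versus Con, and those with it 7 and 72.

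Immediate early genes, which neurons switch on within minutes of activity, made up part of those calls. Of 12 measured at or above the median level, 5 were called lower in Nic than in Con-Pf with the Slc17a7 level in the model and 8 without it. In Con-Pf versus Con 10 were called higher with it and 11 without it. Without Con 3 and Con 5 the calls were 2 with it and 8 without it in Nic versus Con-Pf, and 10 and 10 in Con-Pf versus Con. Their slopes on Slc17a7 gave no call in either direction. Arc, which encodes a synaptic cytoskeletal protein, had a Nic minus Con-Pf difference of -0.88 (SE 0.14, limma adjusted p = 0.0186) with the term and -0.85 (SE 0.12, adjusted p = 0.000501) without it. For the transcription factor genes Egr2, Nr4a1 and Fos the differences with the term were -0.87, -0.97 and -0.96 (SE 0.15, 0.17 and 0.18). Those without it were -0.92, -0.97 and -0.98 (SE 0.13, 0.15 and 0.15). Called only without the term were Egr1, Egr4 and Dusp1, named after their values were seen. Egr1 had a difference of -0.31 (SE 0.07, limma adjusted p = 0.0788) with it and -0.35 (SE 0.06, adjusted p = 0.00215) without it, Egr4 one of -0.44 (adjusted p = 0.173) with it and -0.49 (adjusted p = 0.0128) without it, and Dusp1 one of -0.67 (adjusted p = 0.101) with it and -0.64 (adjusted p = 0.0172) without it.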

How the data were processed

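Total RNA of dissected striatum from 7 Nic, 10 Con-Pf and 8 Con rats was hybridised to Affymetrix rat gene 1.0 ST arrays, 1 per animal. The deposited values are log2 expression levels of 29214 probe sets that the authors summarised and quantile normalised by RMA (the submitters' processing notes name Affymetrix Expression Console 1.1, the methods the affy package). Which genome build the files used is not stated in the sources used here. The paper's supplement describes 1 unnamed sample with a low RNA integrity number, which it calls likely a chip-loading problem and kept for processing. Whether that sample is among these arrays cannot be told. The authors removed 2 Con arrays and 1 Nic array before deposit. They spread arrays over hybridisation dates, which were not given per array, so no batch could be fitted. Array intensity is not a count, and the number of arrays limits precision.

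Genes were named from the platform annotation, in which 15310 probe sets had 1 symbol, 323 several and 13581 none. Gene windows came from RefSeq (GRCr8). Groups follow the sample titles. limma 3.58.1 (R 4.3.3) was fitted to all 25 arrays with group as the term, 2-sided, with Benjamini-Hochberg adjustment and a threshold of 0.05, over the 14607 probe sets with a mean at or above the median (6.97). Neurod6 and Slc17a6 lay below it, so their tests, and those of the marker lists, come from the fit over all 29214 probe sets. A further term for the Slc17a7 level gave slopes and adjusted group differences. Correlations used permutation tests in Python 3.11.15, with resampling inside groups where group means were taken off, and exact enumeration for groups under 10. The fits were tested on simulated data with known shifts and slopes. Alternatives covered the methods' t-test, other filters, normalizations, weights, a replicate block and omitted arrays. The methods name Student's t-test, which was run here with unequal variances and, separately, with pooled variance. Leaving out the 3 arrays with Slc17a7 above 10, and restricting to replicates 1 to 7 without a block, were chosen after seeing the data.

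Named are the 4 genes, the 10 highest and 5 lowest r with Slc17a7 among probe sets at or above the median with 1 symbol, up to 4 genes per marker list with the smallest p, and 4 immediate early genes. Exceptions are marked in the text, apart from Ppp1r1b and Penk, named for their level only. The genes and lists were chosen with earlier results of these data known, among them values of Slc17a7 and Cck, so the lists are no independent evidence.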

Additional observations from a re-analysis of the deposited data

Results flagged for a closer look

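In 69 groups of 7 to 10 arrays, 1 per named gene and group, 9 (13.0%) held an array whose gap to its nearest neighbour was large against the whole range of the group, where chance gives about 5%. The groups are not independent, since they hold Slc17a7 itself and genes chosen for following it. The share is therefore no test against chance, and the gap in Slc17a7 is a description only. Con 5 was the outlying array of Con in 5 genes: Ccn3 (8.75, with the next Con array at 7.72), Hs3st2 (7.26, next 6.60), Neurod2 (6.61, next 6.07), Rspo3 (5.97, next 5.33) and Sidt1 (8.06, next 7.50). Nic 2 stood apart in Nptx1 (9.10, next 8.37) and Nic 7 in Slc17a6 (5.82, next 5.41). Con-Pf 6 stood apart from the other Con-Pf arrays in Slc17a7 (8.55, next 7.79) and in Nptx1 (8.32, next 8.05).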

How the results depend on the processing

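The slope of Neurod6 was called in all 35 alternatives run, between 0.48 and 0.57, and its correlation with Slc17a7 kept its call in all 30 (r between 0.84 and 0.92). The Slc17a7 differences, a description only, kept their signs in all 38 alternatives run. The t-tests, the fits on 2 groups alone and the robust moderation cannot change these estimates. Over the alternatives the Nic minus Con-Pf difference ran between 0.60 and 1.43 and the Nic minus Con difference between 0.25 and 0.82. The Con-Pf minus Con difference ran between -0.75 and -0.35. The Nic minus Con difference of Neurod6, never called, turned to -0.048 without the 3 arrays above 10 and to -0.034 without Nic 2, its range being -0.034 to 0.29 as each array was left out. The correlation of Slc17a7 with Slc17a6 was not called without Con 3 and Con 5 (0.38) or without the 3 arrays above 10 (0.11), and ran between 0.37 and 0.55 as each array was left out. That of Neurod6 with Slc17a6 was called after further quantile normalization (0.43), after median centring (0.43) and with group means kept (0.51), and ran between 0.30 and 0.46 as each array was left out, called without Nic 2, Nic 4, Nic 7, Con-Pf 6, Con-Pf 10, Con 3 or Con 4.

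Calls in the relation to the Slc17a7 level numbered 41, against 7 under a stricter filter, 3 with ranks of Slc17a7, 2 without the 3 arrays above 10 and 16 (without Nic 2) to 86 (without Con 3) as each array was left out. In Nic versus Con-Pf 27 calls became 6 by the methods' t-test, run with unequal variances, and 8 by a pooled-variance t-test. They became 55 with array weights, 14 under the stricter filter and 5 with Con-Pf 9 and 10 as Con. Without the 3 arrays there were 15, and 18 to 35 as each array was left out. In Con-Pf versus Con 184 became 66, 84, 99 with these 2 groups alone, 96 without a filter, 116 without Con-Pf 9 and 10, 27 with them as Con, 85 without Con 3 and Con 5, 94 without the 3 arrays and 104 (without Con 3) to 480 (without Con 7) as each was left out. With the Slc17a7 level in the model, Nic versus Con-Pf (16) gave 0 without a filter, 9 under the stricter one, 7 without Con 3 and Con 5, 9 without the 3 arrays and 0 to 23 as each was left out. Con-Pf versus Con (91) gave 60 and 46 under the filters and 61 to 127, and Nic versus Con (0) gave 1 without a filter and 0 to 503 (503 without Con 7, 1 without Con-Pf 10). At the methods' own thresholds on p and fold, the methods' t-test passed 12, 2 and 26 probe sets in Nic versus Con-Pf, Nic versus Con and Con-Pf versus Con. The cause of these shifts was not tested.

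Same-numbered arrays correlated between -0.35 and 0.34 in their deviations from group means, with a median of 0.06. The median was -0.01 for arrays with different numbers, and 6 of 21 arrays correlated best with their own number. Whether replicate numbers pair the arrays was not tested. With the replicate block the relation gave 571 calls and Nic versus Con-Pf 13, against 44 and 17 over the same replicates without it. The Neurod6 slope was 0.50 with the block.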

Other observations

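The probe set with the highest r with Slc17a7 inside the groups, 10845628 (0.97), changed by 1.05 log2 units per log2 unit of Slc17a7, and a second one without a symbol, 10928191, had r = 0.94 and a slope of 0.60. Both were singled out after their values were seen, and no gene is named for either here. Further called genes with a positive slope, likewise singled out afterwards, included Stx1a (slope 0.14), a syntaxin of the vesicle fusion machinery, measured by 2 probe sets with the same values, Doc2a (0.20), a calcium sensor of vesicle release, Nptxr (0.16), the receptor partner of the pentraxin Nptx1, and Slc6a7 (0.14), a brain proline transporter. Others were Cacna1g (0.15), a calcium channel gene, Kcnh7 (0.14), a potassium channel gene, and Atp2b4 (0.23), a calcium pump gene.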
